A study of Mus musculus with 4 samples.

Results

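The clock output transcription factors Dbp, Tef, Hlf, Nfil3, Bhlhe40 and Bhlhe41 were examined in old and young mouse muscle by mRNA-seq. They were chosen by name, as the rows whose gene symbol, split at commas, equals 1 of these 6 symbols, and each symbol had exactly 1 row. The 6 genes are part of 20340 gene labels with a value in all 4 samples, and all 6 were among the 10266 labels that passed the filter on low values (at least 1 FPKM in at least 2 samples). TA muscle, the tibialis anterior at the front of the lower leg, came from untreated C57BL/6 mice with no engineered allele named in the labels, aged 20 months (Old 1 and Old 2) or 3 months (Young 1 and Young 2). The labels call the tissue muscle, and the methods of the study name the TA. FPKM, the unit used throughout, is the number of sequenced fragments of a gene scaled to transcript length and to the mapped fragments of the sample, so levels of different genes can be compared within a sample. The time of day at which the muscles were taken is not given in the sources used here. The methods say that sex was chosen at random and that several independent mice made up a group in the animal work, without tying a sex or a number of mice to any of these 4 samples. Age and time of sampling may thus differ together, and these cannot be told apart. In a whole muscle, fewer cells of a type and less RNA per cell cannot be told apart either.

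Circadian clocks are feedback loops in which the activators Clock and Arntl (Bmal1) switch on their own repressors, the Per and Cry genes, by binding E-box sequences. Dbp, Tef and Hlf are related bZIP proteins of the PAR family that carry this rhythm outward by activating genes with a D-box in their promoters. Nfil3 (E4BP4) is a bZIP repressor that binds the same D-box, so that activators and repressor compete for shared targets. Bhlhe40 (Dec1) and Bhlhe41 (Dec2) are basic helix-loop-helix repressors that bind E-boxes and act against Clock and Arntl. Skeletal muscle has its own clock, and its outputs include genes of glucose and fatty acid use.

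The 2 samples of an age were more alike in their detail than samples of different ages, but differed in scale, and this bears on every result that follows. Old 1 and Young 2 held higher values (summed FPKM 698130 and 739302 over 20605 loci) and listed fewer loci at 0 (5223 and 5335) than Old 2 and Young 1 (226747 and 251294, with 9558 and 9452 loci at 0). No locus above 0 in Old 2 was at 0 in Old 1, and no locus above 0 in Young 1 was at 0 in Young 2, whereas Old 1 and Young 2 differed by 651 loci in one direction and 539 in the other. At levels of 10 to 30 FPKM, log2 ratios between Old 1 and Old 2 spread with a robust SD of only 0.07, as did those between Young 1 and Young 2 (0.07), while those of Old 1 to Young 2 spread with 0.40. The study describes them as independent sequencing experiments. These values leave it possible that they are 1 library in 2 forms, in which case each age has n = 1 and the p-values carry no replicate check. For this reason each sample's value is given, no mean ± SD is used, and ratios between ages are given between samples of the same form (Old 1 to Young 2, and Old 2 to Young 1). These 2 ratios do not count as 2 replicates if each age is 1 library.

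Nfil3 was lower and Bhlhe40 was higher in old muscles, while Tef and Dbp, the most abundant members, were close to their young levels. Nfil3 was 2.56-fold lower in Old 1 than in Young 2 and 3.14-fold lower in Old 2 than in Young 1. Bhlhe40 was 1.87-fold and 1.86-fold higher in the same pairs. Bhlhe41, Hlf and Dbp were between 1.16-fold and 1.46-fold higher, and Tef was 1.05-fold lower in both pairs. With the values as deposited, limma (Benjamini-Hochberg over 10266 genes, adjusted p under 0.05) passed 0 of the 6 members in either direction, and 0 of 6 had an unadjusted p under 0.05. Of all tested genes, 0.175% were called higher and 0.127% lower in that fit. At an unadjusted p under 0.05 in limma, 35 of 10266 genes were higher and 42 lower, so 0 of 6 does not set the members apart. The median standard error of a log2 fold change was 0.98 across all tested genes, which is the size of the shift between the 2 samples of an age, and this fit could not separate changes of the size seen here.

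**Figure D1:**
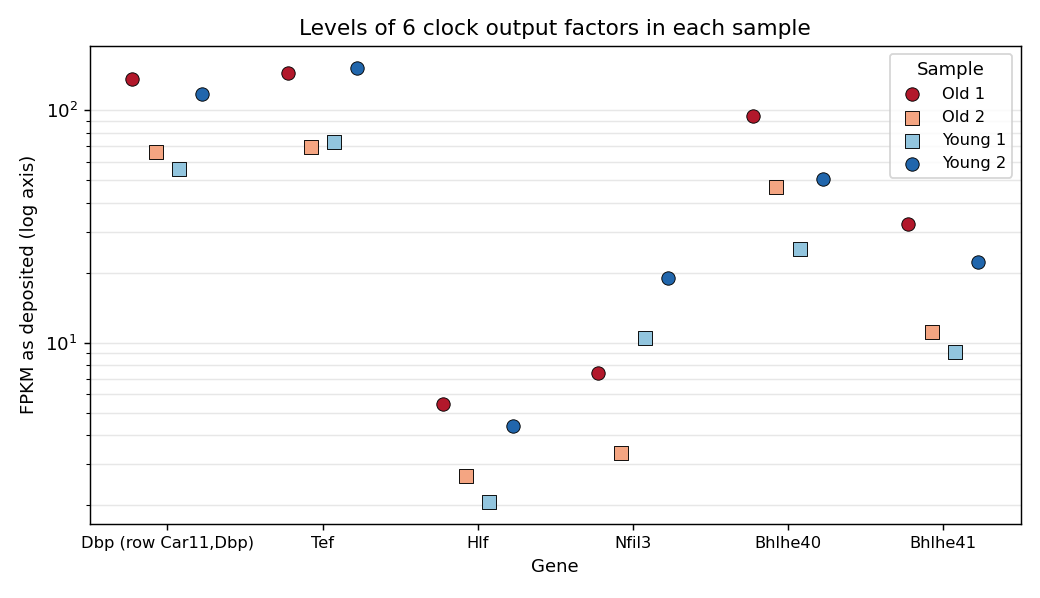
FPKM as deposited (log axis) of the 6 members in each of the 4 samples, 1 point per sample. Circles are Old 1 and Young 2 and squares are Old 2 and Young 1, the samples whose values have the same form. Only for Nfil3 do both old points (7.39 and 3.34 FPKM) lie below both young points (10.5 and 19.0 FPKM).

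As deposited, the old and young values did not overlap for 1 of 6 members, Nfil3, which was lower in old muscles, against 1.93% of all tested genes in that direction. In the other direction the number was 0 of 6, against 1.61%. A ratio of at least 1.5 in both pairs, a limit set after the values were seen, was met by Bhlhe40 among the higher genes (6.64% of 9293 tested genes above 0 in all samples) and by Nfil3 among the lower genes (9.37%). At a ratio of at least 2, Nfil3 was still included (background 2.6%) and no member was among the higher genes (background 1.51%). The planned scaling of each sample to the same median over all tested genes called 0 of 6 members in limma (1 higher and 1 lower at an unadjusted p under 0.05). Of 10266 tested genes, it called 12 higher and 13 lower (651 and 924 at an unadjusted p under 0.05). With the median taken over genes of at least 1 FPKM in all 4 samples, a scaling added after the data were seen, limma called Bhlhe40 higher and Nfil3 lower, while 5.06% of tested genes were called higher and 7.5% lower. One gene of 6 in each direction is too few to set the members apart from these backgrounds. This added scaling only gives all 4 samples the same median over those genes. Beyond scale, the deposited values of the 2 samples of an age already differed little (robust SD of 0.07 at 10 to 30 FPKM). The p-values of this scaling are too small if the 2 samples of an age are 1 library.

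**Figure D2:**
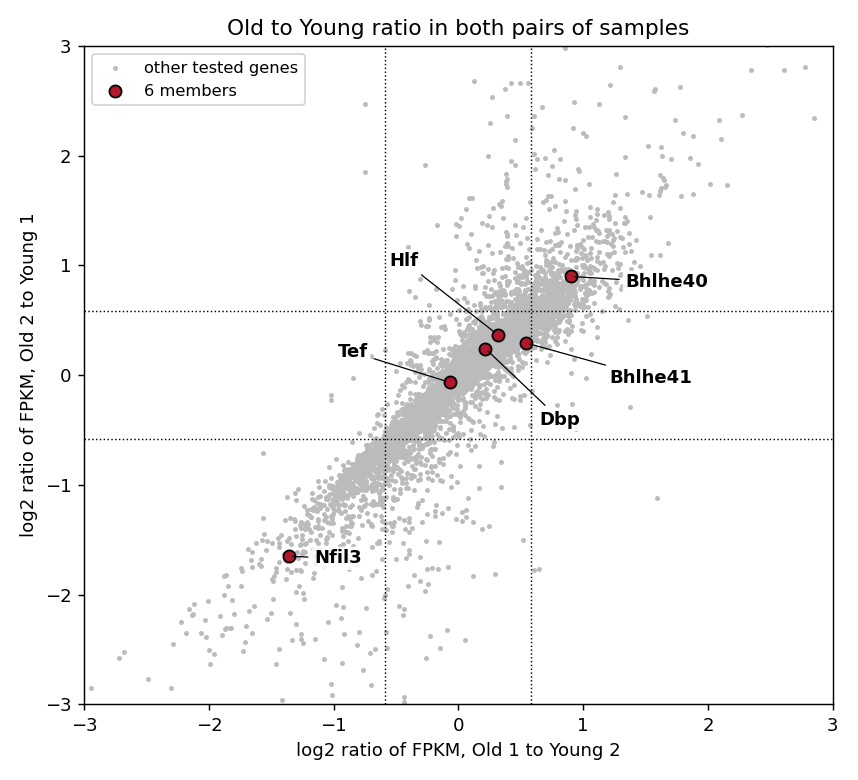
log2 ratio of FPKM, Old to Young, for Old 1 to Young 2 (horizontal axis) and Old 2 to Young 1 (vertical axis), with the 6 members in red and the other tested genes in grey. Dotted lines mark a ratio of 1.5 in either direction, and 73 of 9293 genes, no member among them, lie beyond the axes at 3. Nfil3 lies at -1.36 and -1.65, Bhlhe40 at 0.90 and 0.90, and Tef at -0.07 and -0.07.

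Tef, a PAR bZIP activator, was the most abundant member in every sample. It lies on chromosome 15 from 81802673 to 81826863 (mm10). Its FPKM was 145 in Old 1 and 69.6 in Old 2, against 72.9 in Young 1 and 152 in Young 2. The old and young values interleaved, and samples of the same form were nearly equal. The log2 fold change on the log2(FPKM + 1) scale was -0.07 (limma standard error 0.98, adjusted p = 1.00), with a 95% interval from -1.99 to 1.85, so that sizable changes either way were not excluded by this fit. Among 9293 tested genes, 44.4% had a lower ratio than Tef in Old 1 to Young 2 and 46.05% in Old 2 to Young 1, which places Tef in the middle.

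Dbp, the albumin D-box binding protein and a much used readout of clock output, shared its row with a neighbour. The deposited row is named Car11,Dbp and spans chromosome 7 from 45699956 to 45718002, while RefSeq places Dbp itself from 45705100 to 45710203 on the same build. Car11 encodes a protein related to the carbonic anhydrases, and its part in the value cannot be told apart from that of Dbp. The FPKM of the row was 137 in Old 1 and 66.2 in Old 2, against 56.0 in Young 1 and 118 in Young 2. These values interleaved. The ratio of the row was 1.16 for Old 1 to Young 2 and 1.18 for Old 2 to Young 1, with a log2 fold change of 0.23 (limma standard error 0.97, adjusted p = 1.00). Sphk2, a sphingosine kinase gene on the opposite strand, had a row of its own over the same span, at 8.50 FPKM in Old 1, 10.8 FPKM in Young 2 and 0 in the other samples. Relative to Tef within the same sample, the row stood at 0.941 in Old 1 and 0.951 in Old 2, and at 0.769 in Young 1 and 0.771 in Young 2.

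Hlf, the third PAR bZIP activator, was the lowest member in every sample. It lies on chromosome 11 from 90336535 to 90390917. The FPKM of Hlf was 5.45 in Old 1 and 2.67 in Old 2, against 2.06 in Young 1 and 4.39 in Young 2. The ages overlapped, and in samples of the same form Hlf was 1.24-fold and 1.29-fold higher in old muscles. The log2 fold change was 0.26 (limma standard error 1.00, adjusted p = 1.00). Per unit of transcript length Hlf stood at 3.75% and 3.83% of Tef in the old samples and at 2.83% and 2.88% in the young samples.

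Nfil3, the D-box repressor, was the member that differed most between the ages. It lies on chromosome 13 from 52967209 to 52982857. Its FPKM was 7.39 in Old 1 and 3.34 in Old 2, against 10.5 in Young 1 and 19.0 in Young 2. Both old values were below both young values, even where the old sample had the higher overall scale. An exact two-sided permutation test gave p = 0.333 for Nfil3, the smallest p that 2 samples against 2 allow, and p = 0.667 for each of the other 5 members. The log2 fold change was -1.33 (limma standard error 0.95, adjusted p = 1.00), which was -1.34 under the planned median scaling (standard error 0.20, adjusted p = 0.131) and -1.33 under the added one (standard error 0.10, adjusted p = 0.0246). Only 1.15% of 9293 tested genes had a lower ratio in Old 1 to Young 2, and 1.88% in Old 2 to Young 1. By rank, which does not depend on the scale, Nfil3 lay at percentiles 73.0 and 74.8 of all gene labels in the old samples and at 87.1 and 85.03 in Young 1 and Young 2.

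The number of fragments behind a value is not given, but the lowest values of 2 samples bear on it. In Old 1, over genes with 1 annotated transcript of more than 1500 bases, the product of FPKM and transcript length fell between 80 and 120 for 87 genes and below 80 for 3 genes, and in Young 2 for 69 and 10 genes. No such pile was seen in Old 2 (12 and 31 genes) or Young 1 (16 and 37 genes). If the median of that pile is worth 1 fragment, Nfil3 would rest on about 144 fragments in Old 1 and 366 in Young 2, and Hlf on about 295 and 236. The counting error of the log2 ratio of Old 1 to Young 2 would then be 0.14 for Nfil3 and 0.13 for Hlf, and from 0.03 to 0.05 for the other 4 members. For the merged Dbp row, the transcript length of Dbp alone (1837 bases) was used. This estimate covers counting error alone and says nothing of the variation between mice.

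Ratios between members within a sample do not depend on a factor shared by all its genes. The 2 samples of an age were not related by the same factor at all levels, so such ratios need not remove the whole difference. The summed FPKM of the 3 activators was 38.9 times that of Nfil3 in Old 1 and 41.4 times in Old 2, against 12.5 times in Young 1 and 14.5 times in Young 2. Both old ratios were above both young ratios. The ratio of the Dbp row to Tef also separated the ages (0.941 and 0.951 against 0.769 and 0.771), as did that of Hlf to Tef. Such a separation is thus not particular to Nfil3, and its share over all gene pairs was not taken. The ratios to Nfil3 reuse the values given above and are not separate support. Since the Dbp row includes Car11, the ratio of activators to Nfil3 was also taken without that row. It was then 20.4 and 21.6 in the old samples against 7.14 and 8.27 in the young samples. Hlf alone stood at 0.737 and 0.798 times Nfil3 in old muscles and at 0.197 and 0.231 times in young muscles. Of the terms in these ratios, Nfil3 was the one whose level did not overlap between the ages.

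**Figure D3:**
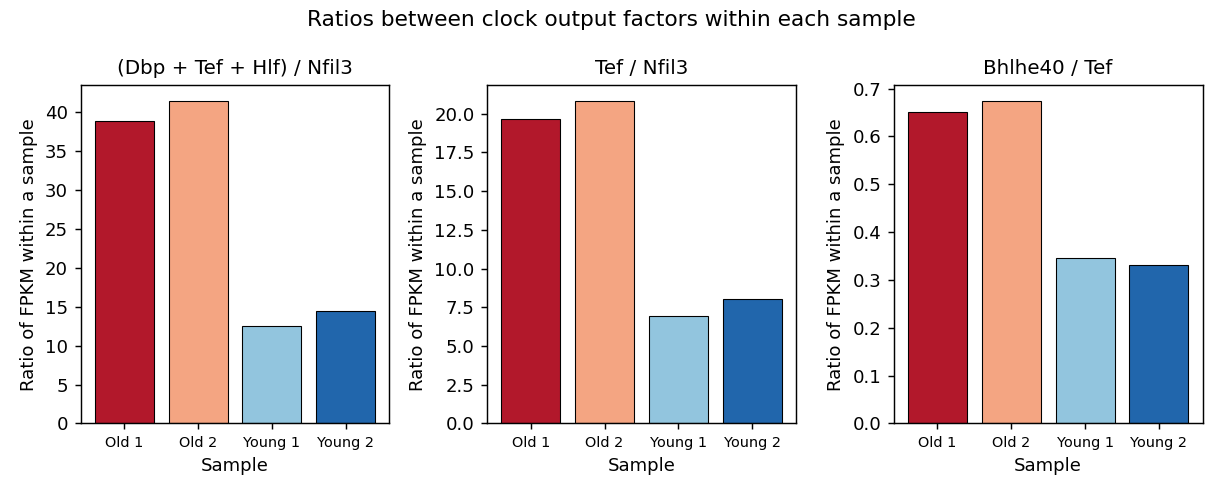
Ratios of FPKM between members within each of the 4 samples, with 1 bar per sample and axes from 0: the summed activators to Nfil3 (left), Tef to Nfil3 (middle) and Bhlhe40 to Tef (right). The activators stood at 38.9 and 41.4 times Nfil3 in the old samples and at 12.5 and 14.5 times in the young samples, and Bhlhe40 stood at 0.651 and 0.674 times Tef against 0.345 and 0.331 times.

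Bhlhe40, an E-box repressor that also responds to hypoxia and other signals, was the E-box repressor with the larger difference. Its row spans chromosome 6 from 108577039 to 108666925, while RefSeq places the gene itself from 108660629 to 108666925. A second row over the same span, the non-coding 0610040F04Rik on the opposite strand, had 14.04 FPKM in Old 1, 10.8 FPKM in Young 2 and 0 in the other samples. The labels and the methods differ on whether the library kit kept strand, so reads of opposite-strand partners may not be separable here. The FPKM of Bhlhe40 was 94.5 in Old 1 and 46.9 in Old 2, against 25.2 in Young 1 and 50.5 in Young 2. The lower old value lay just under the higher young value, so the ages overlapped as deposited, but the 2 pairs of the same form gave nearly the same ratio. The log2 fold change was 0.88 (limma standard error 0.94, adjusted p = 1.00), which was 0.88 under the planned median scaling (standard error 0.24, adjusted p = 0.253) and 0.89 under the added one (standard error 0.08, adjusted p = 0.0262). Among 9293 tested genes, 96.8% had a lower ratio in Old 1 to Young 2 and 95.8% in Old 2 to Young 1.

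Bhlhe41, the paralog of Bhlhe40, has a row that spans chromosome 6 from 145857866 to 145865604, while RefSeq places the gene itself from 145858243 to 145865420. Its FPKM was 32.4 in Old 1 and 11.1 in Old 2, against 9.10 in Young 1 and 22.2 in Young 2. The ages overlapped, and the ratio was 1.46 for Old 1 to Young 2 and 1.22 for Old 2 to Young 1. The log2 fold change was 0.39 (limma standard error 0.93, adjusted p = 1.00). For Bhlhe41 the factor between the 2 samples of an age was larger than for the other members. Old 1 stood at 2.91 times Old 2 and Young 2 at 2.44 times Young 1, while these factors lay between 1.81 and 2.21 for the other 5 members. Both ends of that range were Nfil3, at 2.21 in old and 1.81 in young muscles. The log2 ratios of the 2 pairs were therefore further apart for Nfil3 (-1.36 and -1.65) than for Bhlhe41 (0.54 and 0.29). Bhlhe40 exceeded Bhlhe41 in every sample, by 2.91 and 4.21 times in the old samples and by 2.77 and 2.27 times in the young samples.

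The order of the levels was Tef, Dbp and Bhlhe40 from the top in all 4 samples, and Hlf was last in all 4. Tef and the Dbp row were only 1.06-fold and 1.05-fold apart in the old samples and 1.30-fold apart in both young samples. Nfil3 and Bhlhe41 changed places: Nfil3 was above Bhlhe41 in Young 1 by 1.15-fold and below it in Young 2 by 1.17-fold, so their order in young muscle was not settled. In old muscles Bhlhe41 was 4.39-fold above Nfil3 in Old 1 and 3.33-fold above it in Old 2.

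Promoter sequence is shown for Nfil3, the member that differed most, and for the 2 members with an E-box near their start, Tef and Bhlhe41. Of the 6 members, 5 matched the RefSeq promoter sequences (GRCm38.p6, the build of the files, from 250 bases before to 50 bases after a start site), with 6 windows in all, and Bhlhe40 was not matched. Searched on both strands were the E-box CACGTG, the related CACGTT and the D-box forms TTATGTAA and TTACGTAA, which do not overlap one another here. CACGTG, in capitals, occurred once in each of 3 windows: in Bhlhe41 at 153 bases before the start site, and in Tef at 127 bases before the first and 138 bases before the second start site. Across 32851 promoter windows, 7.15% held CACGTG, 4.68% held CACGTT and 1.06% held a D-box form. The windows of Nfil3, Dbp and Hlf held none of these letters, which says nothing of the sequence outside them. The windows lie at chr13:52980990-52981289 (minus strand) for Nfil3, chr15:81802423-81802722 and chr15:81811164-81811463 (plus strand) for Tef, and chr6:145865371-145865670 (minus strand) for Bhlhe41. The Nfil3 window lies inside the span of its row, whose upstream end on this strand is at 52982857. Sequence around that end was therefore not searched. The Bhlhe41 row also reaches upstream of the start site used for its window, to 145865604 against 145865420 in RefSeq. Its CACGTG lies before that start site but inside the span of the row.
Nfil3: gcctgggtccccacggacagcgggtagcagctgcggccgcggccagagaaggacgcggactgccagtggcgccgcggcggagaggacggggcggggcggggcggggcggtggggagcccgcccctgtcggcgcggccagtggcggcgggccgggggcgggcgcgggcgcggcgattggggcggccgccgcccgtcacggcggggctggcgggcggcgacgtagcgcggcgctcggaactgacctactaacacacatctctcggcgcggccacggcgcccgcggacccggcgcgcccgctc
Tef, first start site: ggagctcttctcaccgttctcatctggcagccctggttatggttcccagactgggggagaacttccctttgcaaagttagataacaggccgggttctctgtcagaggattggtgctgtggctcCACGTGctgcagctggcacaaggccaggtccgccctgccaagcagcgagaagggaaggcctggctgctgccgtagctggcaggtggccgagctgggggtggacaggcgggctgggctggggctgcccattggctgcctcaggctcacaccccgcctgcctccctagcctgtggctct
Tef, second start site: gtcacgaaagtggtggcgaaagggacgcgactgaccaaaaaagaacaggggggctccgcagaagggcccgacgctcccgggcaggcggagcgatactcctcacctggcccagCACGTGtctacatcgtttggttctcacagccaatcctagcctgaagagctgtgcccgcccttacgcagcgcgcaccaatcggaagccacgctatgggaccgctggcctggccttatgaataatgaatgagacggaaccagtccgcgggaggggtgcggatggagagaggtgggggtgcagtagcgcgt
Bhlhe41: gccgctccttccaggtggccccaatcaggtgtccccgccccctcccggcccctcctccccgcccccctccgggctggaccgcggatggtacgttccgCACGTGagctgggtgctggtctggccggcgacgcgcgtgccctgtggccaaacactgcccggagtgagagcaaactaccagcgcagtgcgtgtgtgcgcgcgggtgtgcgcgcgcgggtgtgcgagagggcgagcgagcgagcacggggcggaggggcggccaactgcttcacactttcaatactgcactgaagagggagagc

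The 2 genes with an E-box in the window did not differ between the ages in a shared way, since Tef was 1.05-fold lower and Bhlhe41 1.46-fold and 1.22-fold higher in old muscles. The windows are a description of sequence, and binding was not measured in these samples.

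The core clock itself showed differences in both directions. Of 18 listed genes, 17 had a value and 15 were tested; 7 were higher and 8 lower in old muscles, with a median log2 fold change of -0.03, against -0.01 over all tested genes. In limma, 0 of 15 passed in either direction, and 0 had an unadjusted p under 0.05. At least 1.5-fold in both pairs, 1 was higher (6.64% over all genes) and 3 were lower (9.37%). The one higher gene was Arntl, the partner of Clock, at 6.81 (Old 1), 3.22 (Old 2), 0.698 (Young 1) and 1.96 (Young 2) FPKM, which put both old values above both young values. Per1, a repressor of Clock and Arntl, stood at 16.8 (Old 1), 8.72 (Old 2), 21.5 (Young 1) and 42.8 (Young 2) FPKM, with both old values below both young values. Per2 was 1.90-fold and 2.05-fold lower in the 2 pairs, and Ciart, another repressor, 1.67-fold and 1.56-fold lower. Nr1d1 (Rev-erb alpha), a nuclear receptor repressor of Arntl and Nfil3, was 1.49-fold and 1.95-fold higher, while its paralog Nr1d2 was 1.45-fold and 1.41-fold lower. The other genes, among them Clock, Cry1, Cry2 and Per3, had ratios of 0.735 to 1.58 in the 2 pairs, with Npas2 and Rorb below the filter.

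**Figure D4:**
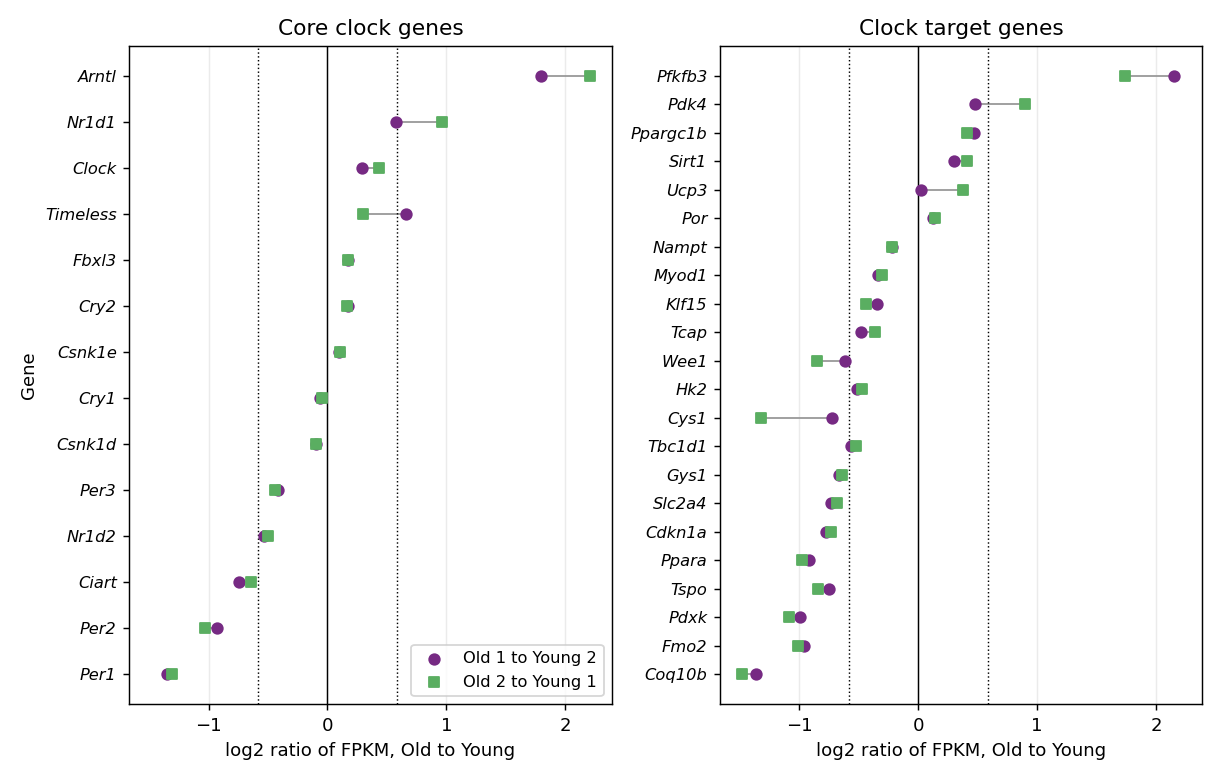
log2 ratio of FPKM, Old to Young, for tested genes of the core clock list (left, 1 gene not shown) and the clock target list (right), with circles for Old 1 to Young 2, squares for Old 2 to Young 1 and dotted lines at a ratio of 1.5. Arntl had ratios of 3.47 and 4.62 and Per1 of 0.393 and 0.405, and 16 of 22 clock target genes lay below 0.

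Genes described as outputs of the clock or of D-box factors were more often lower than higher. Of 28 listed genes, 23 had a value and 22 were tested, and 16 were lower and 6 higher in old muscles, with a median log2 fold change of -0.47. Over all tested genes, 5332 were lower and 4934 higher. In limma, 0 of 22 passed in either direction (1 higher gene and 0 lower genes had an unadjusted p under 0.05), and at least 1.5-fold in both pairs 10 were lower and 1 was higher, where the shares over all genes were 9.37% and 6.64%. The lower end was held by Coq10b, a coenzyme Q binding protein, at 2.57-fold and 2.79-fold lower, and Fmo2, a flavin monooxygenase, at 1.95-fold and 2.02-fold lower. The higher end was held by Pfkfb3, which makes an activator of glycolysis, at 4.45-fold and 3.33-fold higher, and Pdk4, which holds back pyruvate oxidation, at 1.39-fold and 1.87-fold higher. Por, which hands electrons to cytochrome P450 enzymes, was 1.09-fold and 1.10-fold higher, and Pdxk, the kinase that makes active vitamin B6, was 1.99-fold and 2.13-fold lower. Both have been described as targets of the PAR bZIP factors in other tissues.

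Other gene groups also differed between the ages in the same samples, and their part in the values of the 6 members was not tested. All 5 tested slow-fiber genes passed limma as higher, and their summed FPKM was 1167 in Old 1 and 421 in Old 2 against 27.9 in Young 1 and 73.0 in Young 2. Of 13 tested glucocorticoid-responsive genes, 12 were lower and 1 was higher, with a median log2 fold change of -1.25, and 1 (Ddit4, a stress-induced mTOR inhibitor, 13.3-fold and 15.7-fold lower in the 2 pairs) passed limma. Among these is Per1, which the core clock list also holds. Others, such as Pdk4, the 1 higher gene, are also in the clock target list, so these lists are not independent. Immediate-early genes went both ways (5 of 13 higher, 8 lower, median -0.17; 0 passed limma and 1 in each direction had an unadjusted p under 0.05), with Egr1 5.09-fold and 6.87-fold higher and Nr4a3 5.60-fold and 6.82-fold lower. Of the muscle fiber markers, 8 of 10 were above 0 in all samples. Ckm was listed at 0 in all 4 samples. Ttn, which limma called lower, was at 0 in Old 1 and Old 2 but at 14.1 and 299 FPKM in Young 1 and Young 2. Whether such a 0 means no transcript or a locus left without a value was not tested. The Ttn call is therefore not read as a change with age. Markers of other cell types were present in both ages. In Old 1, Old 2, Young 1 and Young 2, in that order, summed FPKM was 18.3, 7.03, 11.6 and 28.2 for 6 leukocyte markers, 72.1, 36.6, 48.8 and 94.4 for 5 endothelial markers, and 166, 86.0, 125 and 246 for 5 fibroblast markers. For 6 adipocyte markers it was 445, 167, 184 and 502, most of it Fabp4 (313, 163, 181 and 345), and for 4 Schwann cell markers 35.1, 16.8, 27.7 and 55.6. No marker of these types was at 0 in all 4 samples, while Cfd, an adipocyte marker, was at 0 in Old 2 and Young 1. Of the tested markers, 3 of 3 leukocyte, 4 of 5 endothelial, 3 of 5 fibroblast, 3 of 5 adipocyte and 2 of 2 Schwann cell genes were lower in old muscles, and 0 of these passed limma (1 fibroblast gene had an unadjusted p under 0.05). Their median log2 fold changes were -0.60 (leukocyte), -0.28 (endothelial), -1.42 (fibroblast), -0.15 (adipocyte) and -0.65 (Schwann cell). Most of the fibroblast sum in Old 1 was Dcn, a matrix proteoglycan gene (1.24-fold and 1.21-fold higher in the 2 pairs), while the collagen genes Col1a1 (4.36-fold and 4.26-fold), Col1a2 (3.14-fold and 3.05-fold) and Col3a1 (2.94-fold and 2.73-fold) were lower.

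Genes with the most similar profiles were sought for each member by the smallest Euclidean distance over the 4 samples, between log2 FPKM values scaled to the same median and centred on the gene, among 7228 genes with at least 1 FPKM in all 4 samples. With 4 samples in 2 ages, such a distance mainly finds genes with the same ratio between the ages. The nearest to Nfil3 were 2310003H01Rik (distance 0.0813), Foxo1 (0.0991), a transcription factor of fasting and atrophy programs, and Zfp36 (0.120), a protein that destabilises mRNAs. Foxo1 stood at 4.89 (Old 1), 2.36 (Old 2), 6.83 (Young 1) and 13.2 (Young 2) FPKM. The nearest to Bhlhe40 were Mllt4 (0.0171), Rest (0.0253) and Angpt1 (0.0269). For Bhlhe41 they were Xirp2 (0.0586), Rpl32 (0.0715) and Dcaf6 (0.0740). Heatr1, Irgm1 and Trappc3 were nearest to the Dbp row, Wls, Wfikkn2 and Cblb to Hlf, and St6galnac4,St6galnac6 (a row of 2 genes), Cant1 and Uevld to Tef, at distances of 0.0128 to 0.0233. No member was among the 3 nearest of another member.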

How the data were processed

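TA muscle mRNA was sequenced in 4 samples, 2 per age. Per the labels and the study's methods, the authors trimmed reads, removed PCR duplicates, aligned to mm10 with TopHat2 (version 2.0.10) guided by RefSeq genes and ran Cufflinks on each sample (the submitters' processing notes name Cuffdiff 2.1.1). They deposited FPKM values per locus, without counts. Locus starts were raised by 1 for 1-based coordinates. The last, incomplete line of each file was left out, loci of one symbol were summed, and genes at 1 FPKM or more in at least 2 samples were compared on log2(FPKM + 1) with limma 3.58.1 in R 4.3.3 (trend, two-sided, Benjamini-Hochberg). Intervals of 95% use the normal quantile (1.96 standard errors). The study calls the samples of an age independent experiments but does not tie them to separate animals, so p-values may measure technical spread alone. The members and gene lists were chosen with earlier results of these data known, so lists are described by counts and medians beside those of all tested genes.

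All members were named. Core clock genes with a value could be named, and of the other lists the 2 highest and 2 lowest with a mean of at least 3 FPKM, while Por, Pdxk, Ckm and the ratio limit of 1.5 were chosen after values were seen. One core clock gene is counted in its list but not reported singly here. The fit was tested on simulated data with 200 changed genes. At equal scale, limma without scaling recovered 200 of them, with 9 false calls. Once samples of the same age were shifted apart by 1 log2 unit, it recovered 0, with 0 false calls. Median scaling then recovered 199, with 4 false calls. The lack of calls as deposited therefore does not show that genes were unchanged. In the simulation each changed gene changed by more than any member did, and the shift was the same for all genes. In the real data the factor between samples of an age differed with level. The simulated counts thus do not show how many real changes these fits can recover. Deviations from the mean of an age correlated at -0.885 between same-numbered samples and at 0.885 between crossed samples, across 10266 genes. With 2 samples per age, these 2 correlations mirror each other by construction. Since Old 1 and Young 2 both held the higher values, the correlations do not show how samples were paired. Alternatives were other pseudocounts, filters, scalings, blocks and leaving out each sample. The depth per sample is unknown. Python 3.11.15, pandas 2.3.3 and matplotlib 3.10.9 were used.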

Additional observations from a re-analysis of the deposited data

How the results depend on the processing

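Fold changes of the 6 members kept their direction under a pseudocount of 0.1, other filters, both kinds of median scaling, quantile normalization, the highest locus per symbol and no trend. Nfil3 passed the limma threshold with quantile normalization (-1.31, adjusted p = 0.0334) and with scaling over genes of at least 1 FPKM in all 4 samples, added after seeing the data (-1.33, adjusted p = 0.0246), and Bhlhe40 did so at 0.90 (adjusted p = 0.0229) and 0.89 (adjusted p = 0.0262). Each setting thus called 1 member higher and 1 lower. Of 10266 tested genes, quantile normalization called 119 higher and 188 lower. The added scaling called 519 (5.06%) higher and 770 (7.5%) lower. Median scaling over all tested genes called 0 members higher and 0 lower from limma, with 1 and 1 at an unadjusted p under 0.05. Of 10266 tested genes, this scaling called 12 higher and 13 lower, with 651 and 924 at an unadjusted p under 0.05. Its adjusted p was 0.131 for Nfil3 and 0.253 for Bhlhe40.

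Leaving out 1 sample as deposited moved each member by the factor between samples of one age: Dbp from -0.30 to 0.75, Tef from -0.60 to 0.46, Hlf from -0.15 to 0.67, Nfil3 from -1.80 to -0.85, Bhlhe40 from 0.38 to 1.38 and Bhlhe41 from -0.34 to 1.13. Single values with the other sign were -0.29 and -0.30 (Dbp), 0.46 and 0.46 (Tef), -0.15 and -0.15 (Hlf), and -0.34 and -0.21 (Bhlhe41), without Old 1 or Young 1 except for Tef (without Old 2 or Young 2). The lone sample of an age is assumed to vary like the others. With median scaling too, Dbp ranged from 0.08 to 0.37, Tef from -0.21 to 0.07 (0.067 without Old 1 and 0.051 without Young 1) and Hlf from 0.14 to 0.38. Nfil3 ranged from -1.56 to -1.13 (-1.26 without Old 1 and -1.43 without Old 2), Bhlhe40 from 0.72 to 1.04 and Bhlhe41 from 0.30 to 0.49. In those fits each gene's own spread came only from the 2 samples of the other age, so no p-values or calls are given.

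The median of the core clock list ranged from -0.49 to 0.42 as deposited and from -0.15 to 0.16 with scaling when 1 sample was left out, and that of the clock target list from -1.01 to 0.08 and from -0.50 to -0.42. Counts of tested genes called (18 higher, 13 lower) became 0 and 0 with no filter (23 and 29 at an unadjusted p under 0.05), 4 and 2 when all samples had to reach 1 FPKM, 119 and 188 with quantile normalization and 519 and 770 with the added scaling. Without 1 sample they ranged from 2 to 6 and from 3 to 10, and with median scaling from 114 to 394 (187 without Old 1, 375 without Young 2) and from 134 to 510 (499 and 230). A replicate block on the numbers in the labels gave 2 and 3, with 0 members called (0 also at an unadjusted p under 0.05). With the crossed pairs as a block, added after seeing the data, 2812 and 3374 genes and 3 and 2 members were called. The ratio of activators to Nfil3, taken as the median of 3 log2 values, was 4.21 (Old 1), 4.31 (Old 2), 2.42 (Young 1) and 2.63 (Young 2), against 5.28, 5.37, 3.64 and 3.86 for the sum. Counts are not given, so no limit from depth was set beyond the assumed fragment numbers for Old 1 and Young 2. Which of these settings is closer to the truth cannot be told while the 2 samples of an age may be 1 library.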
